A study of Mus musculus with 6 samples.

Results

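The MHC class II presentation genes were followed across the cells of the mouse genioglossus, an upper airway muscle of the tongue, as 8 genes chosen by symbol: H2-Aa, H2-Ab1, H2-Eb1, Cd74, Ciita, H2-DMa, H2-DMb1 and H2-DMb2. They are 8 of the 33696 genes in the count matrices, and no measured value entered the choice. The tissue came from male mice of 2 groups, collected 4 weeks into the experiment: animals labelled control and animals labelled OSA-4W (OSA is the usual abbreviation of obstructive sleep apnoea), all marked batch 1. Single cells were captured on the 10x Genomics droplet platform, which counts transcript molecules by unique molecular identifiers (UMIs). The labels list 3 libraries per group. The count matrices of control replicate 2 and of OSA replicates 1, 2 and 3 were used. Control replicates 1 and 3 enter no comparison of levels or cell shares, their counts being not analysed here. The labels give neither the strain, the age, the way the OSA model was made, nor whether a library is 1 animal or a pool, so every p-value measures the spread between these libraries, which may be technical. With a lone control library, the spread came from the 3 OSA libraries (2 residual degrees of freedom), and the control was assumed to vary as they do.

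MHC class II molecules carry peptides of ingested proteins to the cell surface for CD4+ T cells. Their alpha and beta chains assemble in the endoplasmic reticulum around the invariant chain Cd74, which blocks the groove and steers the complex to endosomes, where proteases trim it and the H2-DM heterodimer exchanges the remaining fragment for peptide. The coactivator Ciita switches the genes on together through the RFX, CREB and NF-Y factors bound at the X and Y boxes of their promoters; dendritic cells and B cells use it constitutively, macrophages mainly after interferon gamma.

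The promoters of 4 members are shown because they carry the shared boxes through which the genes are known to be controlled together. Each line gives the 150 bases before the RefSeq transcription start on GRCm38.p6, 5′ to 3′ on the gene's strand, with the X-box core AACNGATG and the Y box TGATTGG in capitals. The windows are chr17:34153041-34153190 (plus strand) for H2-DMb1, chr17:34145099-34145248 (plus) for H2-DMb2, chr17:34305717-34305866 (plus) for H2-Eb1 and chr17:34287824-34287973 (minus) for H2-Aa.
H2-DMb1: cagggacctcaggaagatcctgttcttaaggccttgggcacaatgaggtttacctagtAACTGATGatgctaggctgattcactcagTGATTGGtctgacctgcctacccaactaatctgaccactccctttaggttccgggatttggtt
H2-DMb2: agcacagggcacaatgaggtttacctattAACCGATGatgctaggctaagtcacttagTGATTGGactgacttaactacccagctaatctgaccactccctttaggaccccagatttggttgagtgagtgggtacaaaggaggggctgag
H2-Eb1: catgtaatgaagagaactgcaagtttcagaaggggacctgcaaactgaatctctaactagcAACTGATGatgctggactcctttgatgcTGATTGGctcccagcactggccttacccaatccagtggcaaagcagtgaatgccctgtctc
H2-Aa: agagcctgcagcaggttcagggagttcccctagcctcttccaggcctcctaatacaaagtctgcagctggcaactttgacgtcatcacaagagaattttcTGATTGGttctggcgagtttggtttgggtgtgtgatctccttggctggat
The table of promoters held 5 of the 8 members; H2-Ab1, Cd74 and Ciita had no entry. In H2-DMb1, H2-DMb2 and H2-Eb1 the X core began 92, 121 and 89 bases before the start, and the Y box followed 29, 29 and 28 bases further on. H2-Aa held the Y box alone, 50 bases before its start, and neither of the 2 H2-DMa entries held either motif in its 300 bases. Searched on both strands, with overlapping matches not excluded, the X core lay in 2.32%, the Y box in 7.82% and both in 0.186% of 32851 promoter windows of 300 bases. These matches are letters in a window, and no readout of factor binding was made. The H2-DMb1 and H2-DMb2 genes are close relatives: of 451 windows of 50 bases in the last 500 bases of the longest H2-DMb1 transcript, 92 (20.4%) also occur in H2-DMb2 transcripts, against 0 of 451 the other way. How the deposited counts assign such reads is not given in the sources used here, so the split between both genes is uncertain.

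The 4 matrices held 12618 to 15743 cell barcodes and 70217449 to 82184913 UMIs, of which 12231 to 15217 cells were kept. Over the barcode lists of all 6 libraries, control replicates 1 and 3 included, any pair shared 41 to 67 barcodes, at most 0.468% of the smaller one. The label calls the cells skeletal muscle cells, but by their markers most kept cells were endothelial-like (4196 to 7272 per library), fibroblast-like (2157 to 3462) or mural-like (1619 to 2172), with 272 to 322 satellite-like cells. Cell classes were rebuilt here by clustering without the member genes and are called "-like" after their markers. The macrophage-like class held 202 cells in the control library and 380, 402 and 1524 in OSA replicates 1, 2 and 3, or 1.52% against 2.50%, 3.29% and 11.1% of kept cells. B and plasma-like cells numbered 76 against 26, 23 and 16 (0.574% against 0.171%, 0.188% and 0.116%), and dendritic-like cells 12 against 22, 42 and 88 (0.0906% against 0.145%, 0.343% and 0.640%). In each of these 3 classes the control share lay outside the OSA range. The same held for Schwann-, mural-, satellite-, tenocyte-, monocyte-, neutrophil-, plasmacytoid dendritic- and innate lymphoid type 2-like cells. It lay inside that range for endothelial-, lymphatic endothelial-, fibroblast-, epithelial- and T and NK-like cells. An exact two-sided permutation test over 1 and 3 libraries, which cannot go below 0.25, gave p = 0.5 for macrophage-like, 0.5 for dendritic-like and 0.25 for B and plasma-like cells.

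Class II transcripts were concentrated in few cells. Levels are given as CPM, the UMIs of a gene per 1000000 UMIs of a class in a library; UMI counts are not scaled by transcript length, so levels are compared between classes and libraries and not between genes. The sum of H2-Aa, H2-Ab1, H2-Eb1 and Cd74 was 35928 to 50176 CPM in dendritic-like cells over the 4 libraries, above every value of the next class. B and plasma-like cells (17612 to 24510) and macrophage-like cells (7982 to 19147) followed and overlapped each other, as did the 15 plasmacytoid dendritic-like cells of 3 libraries (3410 to 11452) and the monocyte-like cells (552 to 13096). All other classes had medians of 75.3 to 306 CPM and overlapped their neighbours in the order. The macrophage-, monocyte-, dendritic- and B and plasma-like classes together held 89.6% of the Cd74 UMIs of the control library from 2.31% of its cells. In OSA replicates 1, 2 and 3 they held 81.1%, 81.5% and 87.2% from 3.12%, 4.13% and 12.6% of the cells.

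**Figure D1:**
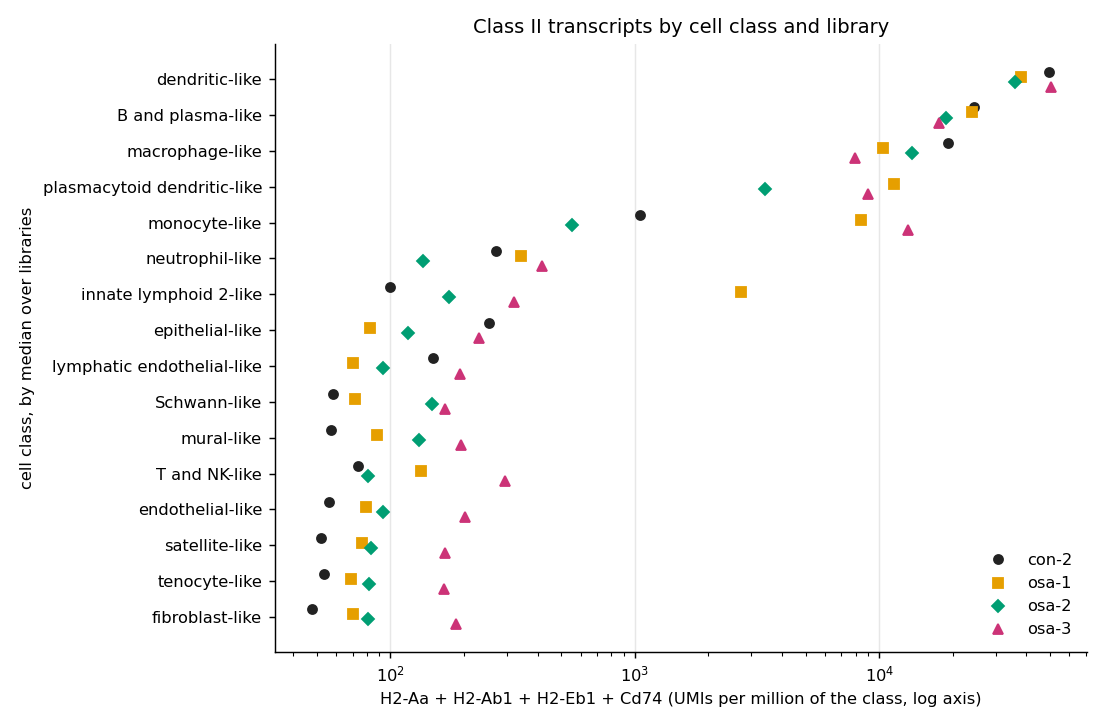
Summed level of H2-Aa, H2-Ab1, H2-Eb1 and Cd74 (x axis, CPM, log scale) in each cell class (y axis), 1 point per library. Dendritic-like cells lie at 35928 to 50176, and the control point is the highest of 4 in macrophage-like cells and the lowest in mural-, endothelial- and fibroblast-like cells.

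The chains of the class II molecule and the invariant chain were lower in macrophage-like cells of all 3 OSA libraries than in the control library, without passing the test. H2-Aa, the alpha chain of H2-A, stood at 2770 CPM in the control library and at 1696, 1781 and 1082 in OSA replicates 1, 2 and 3. H2-Ab1, its beta chain, stood at 3088 against 1697, 2226 and 1332, and H2-Eb1, the beta chain of H2-E, at 2727 against 1573, 1889 and 1167. Cd74 stood at 10562 against 5360, 7705 and 4401. The control library was the highest for each of these genes and OSA replicate 3 the lowest. By the quasi-likelihood test of edgeR, with p-values adjusted after Benjamini and Hochberg over the 11947 genes tested, the log2 differences of OSA minus control were -0.83 ± 0.32 (SE) for H2-Aa (adjusted p = 0.227), -0.78 ± 0.32 for H2-Ab1 (0.254), -0.78 ± 0.32 for H2-Eb1 (0.246) and -0.82 ± 0.33 for Cd74 (0.25).

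The H2-DM chaperone and the coactivator were lower as well. H2-DMa, the alpha chain of H2-DM, fell: it stood at 517 CPM in the control library and at 186, 249 and 140 in OSA replicates 1, 2 and 3, a log2 difference of -1.39 ± 0.31 (edgeR, adjusted p = 0.046). It was the member that passed the threshold, 1 of 8, where 1.46% of all genes tested passed (0.862% lower and 0.603% higher in OSA). The beta chain H2-DMb1 stood at 373 against 164, 238 and 118 CPM (-1.08 ± 0.33, adjusted p = 0.13). H2-DMb2, the second beta chain gene, stood at 65.7 against 2.74, 15.8 and 5.63 CPM, the widest gap of the 8 (-3.08 ± 0.71, adjusted p = 0.136). Ciita stood at 44.3 against 16.2, 34.4 and 14.3 CPM (-1.04 ± 0.44, adjusted p = 0.274). No OSA value reached the control value for any of the 8 genes; 35.0% of all genes tested also had every OSA library below the control. The median log2 difference was -0.93 over the 8 members and 0.04 over all genes tested. The H2-DMa call was lost without OSA replicate 1 (-1.36, where H2-DMb2 passed in its place) and without OSA replicate 3 (-1.26), and 4 members passed without OSA replicate 2. Over 13 alternative settings H2-DMa kept its direction and passed in 5, with adjusted p from 0.000131 to 0.657.

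The macrophage-like class was made of different clusters in the control and OSA libraries. Clusters i1 (led by Cd209f, Fcna, Lyve1 and Folr2), i6 (Ccl12, Ccl7 and Mrc1) and i17 (Ear2, Retnla and Clec4b1) held 96.5% of the class in the control library and 42.4%, 56.0% and 21.5% in OSA replicates 1, 2 and 3. The remaining clusters held 7 control cells against 219, 177 and 1196. Their leading genes included Ms4a7 and Apoe in i0, Gpnmb and Mmp12 in i11, and Arg1 and Marco in i19. Cluster i19 came mostly from OSA replicate 2, with 94 of its 98 cells, and the cells of i5 held few UMIs (median 0.26 of their own library's), with C1qa among its 10 leading genes.

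Among macrophage clusters, class II levels spanned more than the difference between groups. Cluster i17 was the richest of those with at least 10 cells in a library: Cd74 stood at 19134 CPM in the control library and at 15987, 18280 and 20897 in OSA replicates 1, 2 and 3, from 31, 15, 40 and 27 cells. Cluster i6 held 9881 against 10680, 11942 and 13709, and i1 held 6181 against 7234, 5887 and 7820. In i0, Cd74 reached 5602, 1003 and 3426 in the 3 OSA libraries, and in i2 2386, 1055 and 3788. It was 643 and 372 CPM in the i11 cells of OSA replicates 1 and 3 and 321 in the i19 cells of OSA replicate 2. In each OSA library i1, i6 and i17 had more Cd74 than any of i0, i2, i5, i11 and i19 that had at least 10 cells there. The control library held 1 cell of i0 and 6 of i5, with Cd74 at 34333 and 22954 CPM, and none of i2, i11 or i19, so this order could not be read in it. Among the clusters of this class, Ciita was highest in i17 in each library. It stood there at 119 CPM in the control library and at 57.3, 131 and 96.0 in the OSA libraries. The other clusters were closer: i1 held 12.6 against 19.4, 14.0 and 11.8, i6 15.2 against 35.9, 28.2 and 17.2, and in the 3 OSA libraries i0 held 15.7, 9.78 and 12.7 and i2 8.18, 0 and 17.8. In OSA replicate 3 both i0 and i2 were above i1, and i11 had 0 Ciita UMIs in all 3 OSA libraries. Cluster i8 also carried macrophage markers but was left unnamed for its low UMIs. Its Ciita level was above that of i17 in every library, at 219 CPM against 204, 259 and 148, on 12 UMIs against 25, 20 and 10.

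**Figure D2:**
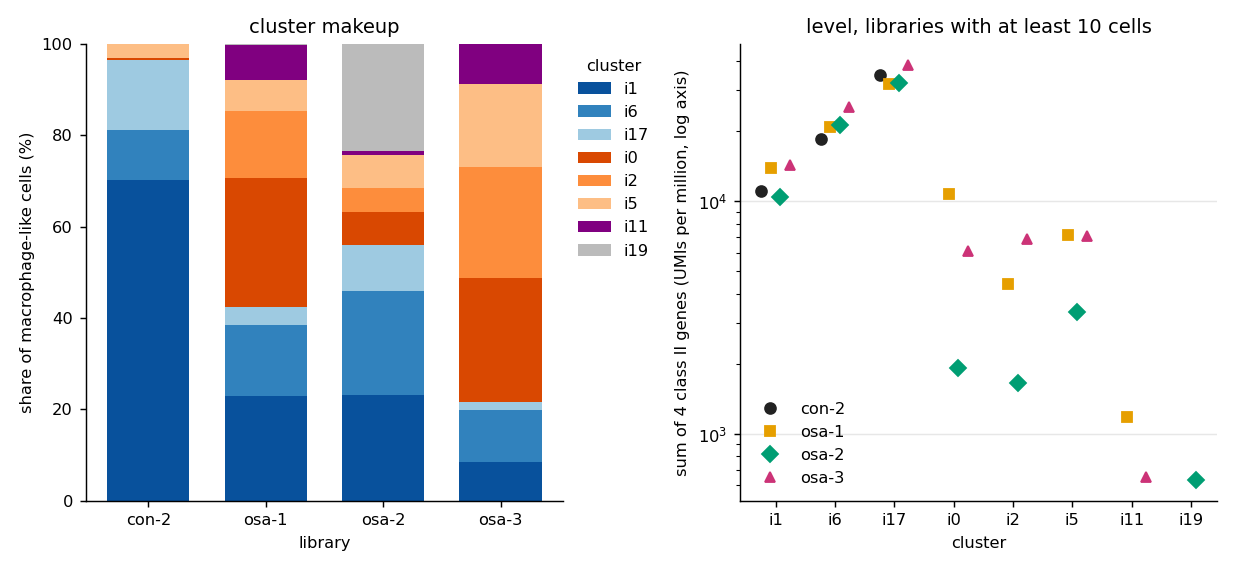
Left, share of macrophage-like cells (y axis, percent) in each of 8 clusters by library (x axis). Right, summed level of H2-Aa, H2-Ab1, H2-Eb1 and Cd74 (y axis, CPM, log scale) by cluster (x axis), 1 point per library with at least 10 cells of that cluster; clusters i1, i6 and i17 hold 96.5% of the control cells and carry the highest levels.

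Within the clusters that the control library filled, the group difference in the class II chains was not seen. Over i1, i6 and i17 alone (195 control cells and 161, 225 and 328 OSA cells), H2-Aa stood at 2720 CPM against 3124, 2671 and 3162, and Cd74 at 10386 against 9955, 11584 and 12610. Control values lay inside the OSA range for both genes. The log2 difference was 0.15 ± 0.24 for H2-Aa and 0.15 ± 0.25 for Cd74 (edgeR, adjusted p = 0.971 for each), and 0.25 and 0.24 for H2-Ab1 and H2-Eb1. H2-DMa remained lower in all 3 OSA libraries (519 against 338, 356 and 394 CPM; -0.50 ± 0.22, adjusted p = 0.657), as did H2-DMb1 (370 against 262, 346 and 274; -0.32 ± 0.23, adjusted p = 0.881) and H2-DMb2 (66.3 against 5.76, 24.9 and 23.7; -1.77 ± 0.45, adjusted p = 0.194). In i1 taken singly H2-DMa overlapped between groups, at 171 CPM against 161, 150 and 205, as it did in i6, at 280 against 263, 224 and 326. H2-DMb1 overlapped in i1 (93.9 against 117, 89.0 and 98.7) and was lowest in the control library in i6 (174 against 206, 199 and 234). Over the 3 clusters together Ciita stood at 44.7 against 31.7, 53.1 and 28.4 CPM, so the groups overlapped. In this subset 0 of 8 members passed edgeR's test, where 0.257% of all genes did, and 2 (H2-DMa and H2-DMb2) were under 0.05 before adjustment. The selection of these clusters was made after the data were seen.

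Single clusters gave the same picture for the chains. In i1, 7 members could be tested and all 7 had log2 differences above 0, with a median of 0.21 (0.03 over all genes). In i6 the median was 0.30 (0.05 over all genes), and 5 of 7 members had every OSA library above the control, as did 34.2% of all genes tested there. By edgeR 0 members passed in i1 or i6, at an unadjusted p under 0.05 there were 0, and 0 were called by DESeq2; edgeR called 0.434% of all genes in i1 and 0.300% in i6. In the unnamed cluster i8, also tested, 3 of 7 members were higher and 4 lower, with a median of -0.06 (0.05 over all genes). There edgeR called 0 members and 1.36% of all genes. In i17, too few cells for a test, H2-DMa stood at 1303 CPM in the control library against 943, 767 and 1008, H2-DMb1 at 994 against 750, 837 and 785, and H2-DMb2 at 218 against 31.3, 80.6 and 120. These H2-DM genes were highest in the control library, whereas H2-Aa (4775 against 5126, 4036 and 5031) overlapped.

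**Figure D3:**
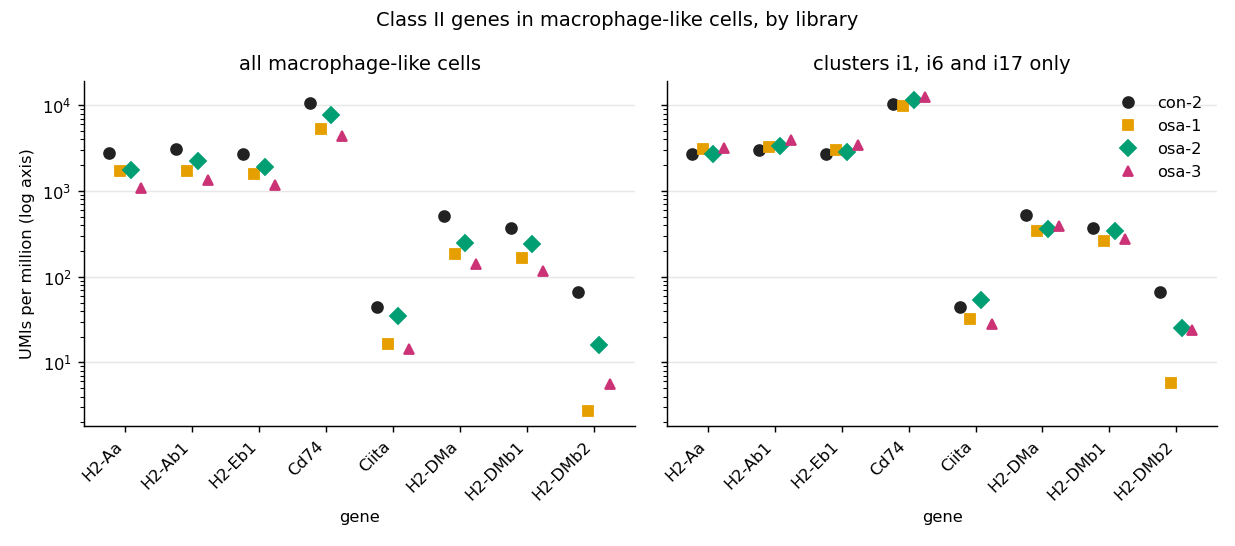
Level of the 8 class II genes (x axis) in CPM (y axis, log scale), 1 point per library, in all macrophage-like cells (left) and in clusters i1, i6 and i17 alone (right). On the left the control point is the highest for all 8 genes, from 65.7 for H2-DMb2 to 10562 for Cd74; on the right it lies inside the OSA range for H2-Aa, Cd74 and Ciita.

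At equal depth, a smaller share of macrophage-like cells carried class II transcripts in each OSA library, in a class whose cluster makeup differed. After thinning each cell to 1000 UMIs, 75.9% of control macrophage-like cells (exact binomial 95% interval 69.3 to 81.7) had a UMI of H2-Aa, H2-Ab1, H2-Eb1 or Cd74. In OSA replicates 1, 2 and 3 the shares were 64.7% (59.5 to 69.6), 58.4% (53.3 to 63.4) and 68.0% (65.5 to 70.5). All OSA shares were below the control share (exact permutation p = 0.25, the smallest possible), and the median thinned cell held 10 such UMIs in the control library against 2, 1 and 2. Unthinned shares were 85.6% against 84.2%, 73.4% and 87.3%, so OSA replicate 3 was then above the control. Thinning left out 7 control cells and 15, 15 and 113 OSA cells. The same share in endothelial-like cells, which are not professional presenting cells, was 5.89% against 7.66%, 8.04% and 17.6%, at median depths of 3007, 3083, 3567.5 and 2656 UMIs per cell; the macrophage-like medians were 6422.5, 7275.5, 5220 and 6084.5. These intervals, and the Poisson intervals below, cover counting error only.

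Dendritic-like cells kept high class II levels in every library. Cd74 stood at 26493 CPM in the control library (exact Poisson 95% interval 25478 to 27537, from 12 cells) and at 18365, 18537 and 24529 in OSA replicates 1, 2 and 3. H2-Aa stood at 7621 against 6293, 5710 and 8185 CPM, H2-Ab1 at 8033 against 7266, 6230 and 8885, and H2-Eb1 at 7095 against 6214, 5450 and 8577. OSA replicate 3 was above the control for each of these 3 chains. Ciita stood at 196 against 56.8, 153 and 180 CPM. H2-DMa stood at 1083 CPM (886 to 1311) against 560, 641 and 636, and H2-DMb1 at 959 (774 to 1175) against 617, 753 and 697. H2-DMb2 stood at 92.8 against 110, 123 and 87.8. The control was the highest for H2-DMa and H2-DMb1 but not for H2-DMb2, and for H2-DMa its counting interval lay above the 3 OSA intervals (473 to 658, 568 to 720 and 578 to 697). The class had too few cells for a test. Here too the makeup differed: all 12 control cells belonged to i15, a Cd209a and Flt3 cluster, while i26, which expressed Ccr7, Fscn1 and Ccl22, markers of mature dendritic cells, held 0 control cells and 6, 8 and 18 OSA cells. Within i15 the H2-DMa values were 1083 against 740, 821 and 719 CPM, where the interval of OSA replicate 2 (727 to 924) overlapped that of the control (886 to 1311). H2-DMb1 there was at 959 against 832, 949 and 812 CPM. All 3 OSA intervals (709 to 970, 848 to 1059 and 741 to 888) overlapped that of the control (774 to 1175). In i26 H2-DMa was at 43.9, 48.8 and 196 CPM in OSA replicates 1, 2 and 3, below each of its i15 values. H2-DMb1 in i26 was at 0, 107 and 88.9 CPM, also below its i15 values. H2-Aa in i26 was still at 3041, 2157 and 6377 CPM.

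B and plasma-like cells differed from the other presenting cells in the H2-DM beta chain they used. At least 10 UMIs of the 4 genes were found in 100% of these cells in the control library and in 100%, 91.3% and 100% in OSA replicates 1, 2 and 3. Cd74 stood at 14648 CPM in the control library and at 14362, 11391 and 11560 in OSA replicates 1, 2 and 3, and the median thinned cell held 25 UMIs of the 4 genes against 25.5, 23 and 26.5. H2-Aa stood at 3619 against 3578, 2571 and 2108 CPM, H2-Ab1 at 2958 against 2832, 2246 and 2076, and H2-Eb1 at 3284 against 3251, 2595 and 1868. H2-DMa was at 374 against 317, 372 and 160, and Ciita at 167 against 102, 93.1 and 208. H2-DMb2 was at 695 against 593, 663 and 479 and H2-DMb1 at 185 against 204, 268 and 128. H2-DMb2 supplied 79.0% of the H2-DMb1 and H2-DMb2 UMIs of this class in the control library and 74.4%, 71.2% and 78.9% in the OSA libraries. In dendritic-like cells its share was 8.82% against 15.1%, 14.1% and 11.2%, and in macrophage-like cells 15% against 1.65%, 6.23% and 4.55%. The B and plasma-like range did not overlap that of either class in any library, on 38 to 205 UMIs of both genes per library. In the control library 51.9% of all H2-DMb2 UMIs came from this class, against 50.9%, 29.7% and 16%, while its share of kept cells was 0.574% against 0.171%, 0.188% and 0.116%. Over all kept cells H2-DMb2 stood at 4.69 CPM against 1.52, 2.72 and 2.43 (-0.96 ± 0.43, adjusted p = 0.988 by edgeR), the 1 member of 8 with every OSA library below the control, as were 32.0% of all genes. Cd74 over all kept cells stood at 358 against 415, 492 and 1073 CPM (1.04 ± 0.71, adjusted p = 0.988). There edgeR called 0 of 20888 genes and 0 members, before adjustment 0 members were under 0.05, and 0 were called by DESeq2.

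In monocyte-like cells class II levels were high in OSA replicates 1 and 3 and low in the control library and OSA replicate 2. Cd74 stood at 885 CPM in the control library (705 to 1098, 17 cells) and at 4507, 392 and 7208 in OSA replicates 1, 2 and 3, and H2-Aa at 85.3 against 1389, 39.9 and 2096. The control value fell between OSA replicate 2 and the other OSA libraries for both. H2-Ab1 stood at 64.0 CPM (23.5 to 139) against 1614, 79.8 and 2149, H2-Eb1 at 10.7 (0.270 to 59.4) against 907, 39.9 and 1645, and H2-DMb1 at 53.3 (17.3 to 124) against 194, 56.5 and 181. For these 3 genes all OSA libraries were above the control, with OSA replicate 2 inside the control's counting interval. Ciita (18.8, 3.32 and 34.2) and H2-DMb2 (3.13, 13.3 and 3.42) had 0 UMIs in the control library. The counting interval for 0 counts there reached 39.4 CPM, above each of these OSA values. Cells with at least 10 UMIs of the 4 genes made up 17.6% of this class in the control library against 37.0%, 7.89% and 56.6%. H2-DMa, at 352 against 225, 99.7 and 260 CPM, was highest in the control library, with an interval of 242 to 494. In the innate lymphoid type 2-like class the high value of OSA replicate 1 (2728 CPM for the 4 genes) came from 1 cell, which held 336 of the 345 UMIs. By edgeR 0 of 4 members tested passed in T and NK-like cells, where 3.38% of all genes did, and 0 of 4 in neutrophil-like cells, where 0% did. Before adjustment 1 and 0 of these members were under 0.05, and 0 were called by DESeq2 in either class.

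Low class II counts in non-immune cells were read beside transcripts that belong to other cells, some of which rose and some of which fell. In endothelial-like cells Cd74 stood at 22.2 CPM in the control library and at 34.0, 40.8 and 84.3 in OSA replicates 1, 2 and 3 (log2 difference 1.32 ± 0.86, edgeR adjusted p = 0.941). H2-Aa stood at 10.9 against 14.9, 14.7 and 34.4, H2-Ab1 at 11.7 against 17.5, 21.8 and 46.2, and H2-Eb1 at 11 against 13.2, 15.9 and 36.7. H2-DMa stood at 7.99 against 6.83, 7.60 and 8.10, and H2-DMb1, H2-DMb2 and Ciita were at most 3.58 CPM. All 3 OSA libraries were above the control for 6 of 7 members tested, as they were for 21.9% of all genes tested. Summed over endothelial-, fibroblast-, mural-, satellite- and tenocyte-like cells, the 4 genes ranged from 47.6 to 57.1 CPM between classes of the control library, and from 69.2 to 87.8, 80.6 to 131 and 166 to 202 in the OSA libraries. The median over these 5 classes was 1.43, 1.56 and 3.47 times that of the control library in OSA replicates 1, 2 and 3. The ratios that follow are ratios of such medians, gene by gene. The complement gene C1qa, made by macrophages, moved by 1.67, 1.63 and 4.28 times in the same cells, and C1qb by 1.95, 2.0 and 6.08. Lyz2, a lysozyme of myeloid cells, moved by 3.45, 3.14 and 12.7 times, and the B cell gene Cd79a by 0.432, 0.554 and 0.372. S100a8, a neutrophil transcript, was 171 times the control level in OSA replicate 2, the library with 491 neutrophil-like cells. That ratio rests on few UMIs, as its control median was 0.234 CPM (0 to 0.603 between classes). The median of H2-DMa was at 0.887, 0.748 and 0.792 times that of the control. By class, H2-DMa was below the control in all 3 OSA libraries in mural-, satellite- and tenocyte-like cells. The groups overlapped in endothelial-like cells and in fibroblast-like cells (5.84 CPM against 6.22, 5.37 and 6.02). The median of H2-DMb2 was at 0.192, 0.453 and 0.763 times on few UMIs (8 in the control endothelial-like cells), and that of H2-DMb1 at 1.84, 1.61 and 2.11 times. The part of free RNA in the class II counts of these cells was not tested.

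**Figure D4:**
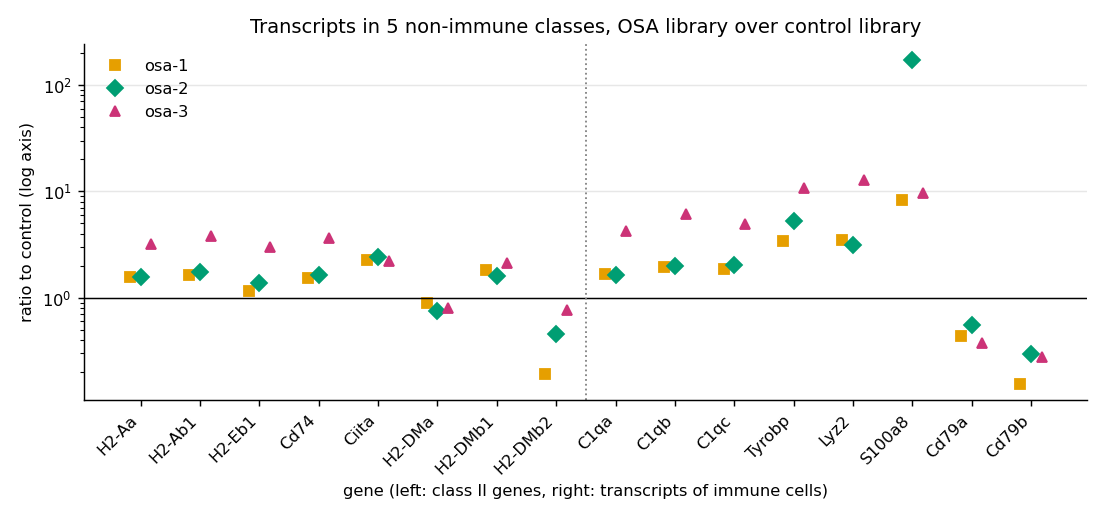
Level of class II genes and of immune cell transcripts (x axis) in endothelial-, fibroblast-, mural-, satellite- and tenocyte-like cells, as the ratio of each OSA library to the control library (y axis, log scale), 1 point per OSA library. Each ratio divides the median over these classes in the OSA library by that in the control library. H2-Aa, H2-Ab1, H2-Eb1, Cd74 and the C1q genes lie above 1 in all 3 libraries with OSA replicate 3 the highest, while H2-DMa, H2-DMb2, Cd79a and Cd79b lie below 1.

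No member passed the test in these 5 classes by edgeR. The median log2 difference of the members tested was 1.02 in endothelial-like, 1.30 in fibroblast-like, 1.25 in mural-like, 1.13 in satellite-like and 0.83 in tenocyte-like cells, against 0.01 to 0.03 over all genes. Of all genes tested, edgeR called 0% in endothelial-like and fibroblast-like cells, 0.0501% in mural-like, 0.0816% in satellite-like and 0.0316% in tenocyte-like cells. At an unadjusted p under 0.05 there were 0 members in endothelial-like, 1 in fibroblast-like, 3 in mural-like, 1 in satellite-like and 0 in tenocyte-like cells, and DESeq2 called 0 in each. Without OSA replicate 1 or 2 the counts rose: 3 members passed in endothelial-like cells without replicate 2, 4 in fibroblast-like and 5 in mural-like cells without replicate 1. Without OSA replicate 3 no member passed in any of the 5. Ciita was at most 0.730 CPM in these classes, and the 7 non-immune classes with Schwann-like and lymphatic endothelial-like cells held 16, 24, 25 and 24 Ciita UMIs in all.

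Vessel cells that can express class II were examined apart. In lymphatic endothelial-like cells Cd74 stood at 63.1 CPM in the control library and at 30.4, 49.6 and 89.9 in OSA replicates 1, 2 and 3, so the groups overlapped (-0.06 ± 0.63, edgeR adjusted p = 1). The control value of the 4 genes, 149 CPM, was above the 47.6 to 57.1 of the 5 classes above. H2-Aa stood at 27.8 CPM in the control library against 15.2, 14.2 and 30.5, H2-Ab1 at 37.4 against 15.2, 18.9 and 41.5, and H2-Eb1 at 20.3 against 9.13, 10.6 and 30.5. OSA replicate 3 was the highest for each. H2-DMa, H2-DMb1, H2-DMb2 and Ciita were at most 6.09 CPM. Transcripts of other cells differed in direction in the control library. C1qa was lower in lymphatic endothelial-like cells (6.42 CPM) than in those classes (7.66 to 10.8). So were C1qb (6.42 against 7.03 to 9.64) and Lyz2 (11.8, below every value of those classes). C1qc was higher (9.62 against 3.62 to 8.21), as was Cd79a (12.8 against 1.21 to 3.99). These values rest on few UMIs, as 27.8 CPM of H2-Aa in this class was 26 UMIs. No counting interval is given for them, so these orders are uncertain. The part of free RNA was not tested. In OSA replicate 1 the class had 70.0 CPM, inside the 69.2 to 87.8 of the other classes. Venous-type cells (cluster e8, led by Selp, Sele and Plvap) had Cd74 at 52.1 CPM against 36.0, 67.3 and 146, close to the endothelial-like value of 34.0 in OSA replicate 1 and above it in the other libraries. Of the lymphatic endothelial-like members, 0 of 4 tested passed by edgeR, where 0.0403% of all genes did. Before adjustment 0 were under 0.05, and 0 were called by DESeq2.

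Schwann-like cells carried H2-DM transcripts without matching class II chains. H2-DMa stood at 54.7 CPM in the control library and at 37.1, 28.7 and 41.5 in OSA replicates 1, 2 and 3, whereas the other 6 non-immune classes had 2.36 to 8.10 over all libraries. H2-DMb1 stood at 26.7 against 12, 13.4 and 23.7 CPM, and the same 6 classes had 1.01 to 6.57. In all 4 libraries the Schwann-like value was above every other non-immune class for both genes. The transcripts lay mainly in cluster c6, whose leading genes included Mbp and Prx, with H2-DMa at 67.9 against 49.2, 36.9 and 55.7 CPM and H2-DMb1 at 37.7 against 17.2, 22.4 and 33.6. Clusters c24 and c26 had H2-DMa at 10.6 to 26.4 and H2-DMb1 at 0 to 7.20 CPM. C1qa in Schwann-like cells, at 10.2 against 15.1, 19.8 and 46.7 CPM, was near the range of the other non-immune classes, while Lyz2, at 218 against 280, 807 and 628, was above the endothelial-like values of 18.9, 57.3, 56.0 and 235. Both H2-DM chains were lower in all 3 OSA libraries (23.8% of all genes tested were), with log2 differences of -0.59 ± 0.26 for H2-DMa (edgeR adjusted p = 1) and -0.76 ± 0.32 for H2-DMb1 (0.997).

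Cd74 rose in Schwann-like cells, from 24.7 CPM in the control library to 31.1, 78.5 and 60.8 in OSA replicates 1, 2 and 3 (1.16 ± 0.29, edgeR adjusted p = 0.0474). It was 1 of 6 members tested that passed, where 0.174% of all genes tested passed, and DESeq2 called 0. The highest value came from OSA replicate 2, in which cluster c24 reached 153 CPM against 19.3 in the control library. The call was lost in 8 alternatives, among them those without OSA replicate 2 (0.87) and without OSA replicate 3 (1.03), while 2 members passed without OSA replicate 1. H2-Aa stood at 10.4 CPM against 11.7, 17.9 and 28.9, H2-Ab1 at 14.8 against 17.7, 26.8 and 42.3, and H2-Eb1 at 8.52 against 11, 24.9 and 35.6. Ciita and H2-DMb2 were at most 1.28 CPM. The 3 chains did not pass the test (adjusted p = 1, 0.643 and 0.123 by edgeR), and their highest values came from OSA replicate 3. C1qa was also highest there, and the part of free RNA was not tested.

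**Figure D5:**
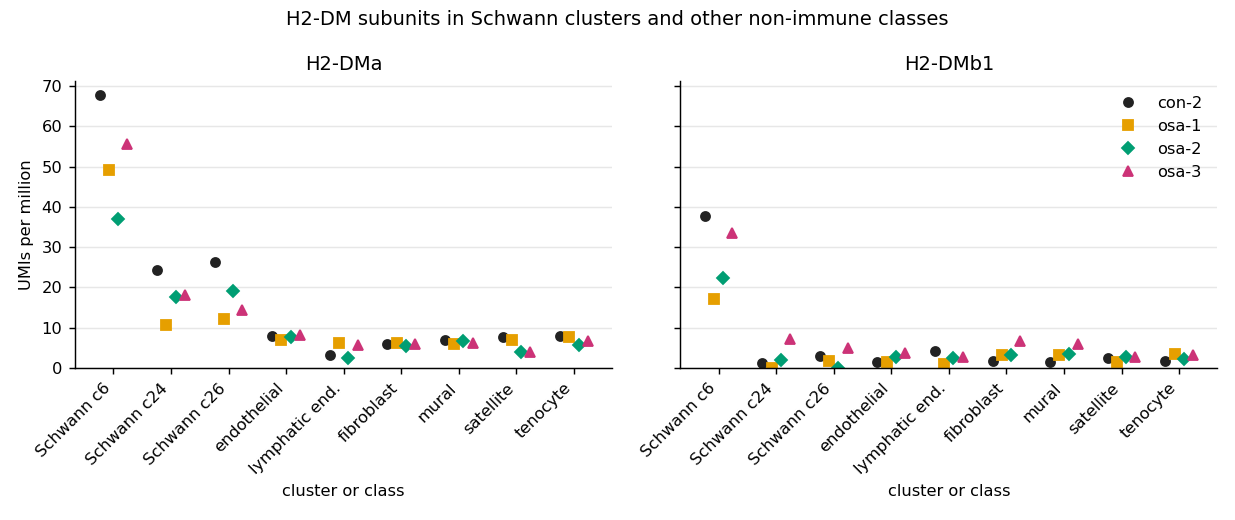
Level of H2-DMa (left) and H2-DMb1 (right) in CPM (y axis) in 3 Schwann-like clusters and 6 other non-immune classes (x axis), 1 point per library. Cluster c6 lies at 36.9 to 67.9 for H2-DMa and 17.2 to 37.7 for H2-DMb1, above every other class shown.

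The rest of the pathway was read from 6 lists in macrophage-like cells. Of the other class II and peptide loading genes, 0 of 10 tested passed by edgeR, 3 were under 0.05 before adjustment, and 3 were called by DESeq2; 6 had positive and 4 negative log2 differences, with a median of 0.52. The 4 most abundant genes of this list did not pass. Ctss, which trims the invariant chain, was at 1172 CPM in the control library against 2993, 1809 and 3133 (1.25 ± 0.42, adjusted p = 0.174). Ctsl was at 190 against 591, 372 and 639 CPM (adjusted p = 0.0959), Ctsb at 1231 against 1979, 1500 and 2129, and the endosomal tetraspanin Cd63 at 391 against 1004, 684 and 1048. Each of these 4 was lowest in the control library, as were 32.3% of all genes tested. In cluster i1 Ctss did not show this order, at 1135 against 1133, 977 and 1048 CPM.

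Of the transcription factors of class II genes, 0 of 10 passed by edgeR, 0 were under 0.05 before adjustment, and 0 were called by DESeq2, with a median of -0.20. The myeloid factor Spi1 stood at 347 against 431, 459 and 497 CPM and Irf8, a factor of the same lineage, at 80.9 against 97.8, 96.7 and 122. Creb1 stood at 41.5 against 32.3, 40.1 and 21.0 and the NF-Y subunit Nfyc at 32.5 against 28.3, 36.4 and 23.4. The other 6 genes were at 1.41 to 42.2 CPM. In the interferon gamma axis 1 of 11 passed: Irf1, an interferon-induced activator, fell from 577 CPM to 176, 227 and 107 (-1.73 ± 0.33, adjusted p = 0.0262), with no overlap between groups. Ifng itself had 0 CPM in these cells in all 4 libraries. In cluster i6 Irf1 was also lower, at 902 against 290, 258 and 283 CPM (-1.70 ± 0.26, adjusted p = 0.000144), and in i1 it stood at 655 against 509, 403 and 435 (adjusted p = 0.901). The Ciita-related coactivator of class I genes, Nlrc5, fell from 124 CPM to 42.4, 45.7 and 23.1 (-1.73 ± 0.32, edgeR adjusted p = 0.025). Of 12 class I genes, 2 were under 0.05 before adjustment and DESeq2 called 1. By edgeR 1 of the 12, Nlrc5, passed, where 1.46% of all genes did. The class I genes H2-K1 (550 against 467, 377 and 544), H2-D1 (1034 against 868, 899 and 1117) and B2m (1792 against 1624, 1060 and 1621) did not.

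Costimulation genes had 0 of 6 past the threshold by edgeR (4 at an unadjusted p under 0.05, 2 by DESeq2) and a median of -0.74. Cd86, a ligand of CD28, stood at 878 CPM against 322, 410 and 139 (-1.58 ± 0.44, adjusted p = 0.138), and Cd274, the PD-1 ligand, at 27.0 against 85.0, 66.8 and 68.5 (1.5 ± 0.35, adjusted p = 0.0527). Among dendritic subset genes 1 of 9 passed by edgeR (3 at an unadjusted p under 0.05, 1 by DESeq2), where 1.46% of all genes tested passed. The lectin Clec10a fell from 157 CPM to 42.1, 53.4 and 24.8 (-1.96 ± 0.32, edgeR adjusted p = 0.0185). Sirpa stood at 232 against 280, 276 and 280, Batf3 at 89.9 against 35.7, 47.4 and 33.8 (edgeR adjusted p = 0.0656) and Cd209a at 23.5 against 2.44, 9.31 and 2.99. Xcr1 and Clec9a, which mark another dendritic subset, were at most 0.405 CPM. In cluster i1 Clec10a was 245 against 194, 166 and 299 CPM, so the groups overlapped. None of the 6 lists had a gene past the threshold in endothelial-like or lymphatic endothelial-like cells by edgeR. There, 1 gene in each of 3 lists in endothelial-like cells was under 0.05 before adjustment and 1 was called by DESeq2, and in lymphatic endothelial-like cells at most 3 genes of a list did and DESeq2 called 0.

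The genes whose pattern over classes was most like the summed chains were found by Pearson correlation of log2(CPM + 1) over 50 sums of 1 class and 1 library with at least 30 cells, in 15 classes and among 14956 genes. The 8 highest were Fgd2 (0.920), Ly86 (0.911), Pld4 (0.909), Cd86 (0.907), Cd180 (0.870), Ctss (0.866), Pkib (0.856) and Wdfy4 (0.855). The sums share libraries and classes, so these values are a description. The members not in the sum had 0.901 (Ciita), 0.899 (H2-DMb1), 0.830 (H2-DMa) and 0.782 (H2-DMb2).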

How the data were processed

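Raw UMI counts per gene and cell barcode were deposited by the authors as filtered 10x matrices, made with Cell Ranger 9.0.1 per the file headers; the submitters' processing notes name GRCm39 and mm39. Strand and intron settings are not given in the sources used here.

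Barcodes with at least 300 genes, at least 500 UMIs and at most 20% mitochondrial UMIs were kept, and doublets called by Scrublet in scanpy 1.11.5 were removed (356 to 551 per library). Cells were clustered on 2000 variable genes without the members, 30 principal components, 15 neighbours and Leiden resolution 1, immune cells again on their own, and named from marker lists when at least 3 markers led. How strongly a second class's markers bar a name was set after the clusters were seen. That choice put cluster i4 (2.89% of kept cells of OSA replicate 2) into the neutrophil-like class. Cluster i8 stayed without a name for its low UMIs. It held 0.189%, 0.473%, 0.360% and 0.400% of kept cells in control replicate 2 and OSA replicates 1, 2 and 3. Cluster i20 (0.0226%, 0.0394%, 0.466% and 0.131%) also got no name, its leading genes being those of a different class.

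Counts were summed per library and class. Classes with at least 30 cells in every library, and clusters with at least 20, were tested with edgeR 4.0.16 (quasi-likelihood, TMM, filterByExpr, Benjamini-Hochberg over all genes tested, threshold 0.05); the SE is the log2 difference divided by the square root of F. DESeq2 1.42.0, other filters and scalings, and leaving out each OSA library were alternatives. The code was tested on simulated counts. The rule was to name all 8 members in each class described; in fibroblast-, mural-, satellite-, tenocyte-, T and NK- and neutrophil-like cells they are given as counts and medians instead. List genes are named where they pass, or otherwise up to 4 of the most abundant; Ifng, Cd209a, Xcr1 and Clec9a fall outside this and were named after their values were seen. The members, lists and settings were chosen with earlier results of these data known.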

Additional observations from a re-analysis of the deposited data

Results flagged for a closer look

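The summed level of H2-Aa, H2-Ab1, H2-Eb1 and Cd74 differed from the control library in opposite directions in different classes. Its mean over the 3 OSA libraries was 0.555 times the control value in macrophage-like, 0.822 in B and plasma-like and 0.567 in epithelial-like cells. In these classes all 3 OSA libraries were below the control. The mean was 2.21 times the control in Schwann-like cells, 2.30 in T and NK-like, 2.23 in endothelial-like and 2.36 in fibroblast-like cells. It was 2.41 times in mural-like, 2.10 in satellite-like, 1.97 in tenocyte-like and 10.8 in innate lymphoid type 2-like cells. In these classes all 3 OSA libraries were above the control. The innate lymphoid value rested mainly on 1 cell of OSA replicate 1. Over macrophage clusters i1, i6 and i17 alone, the 4 genes had log2 differences of 0.15 to 0.25. Neither the difference between the classes nor the part of free RNA was tested.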

How the results depend on the processing

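No paired analysis was possible because replicate 2 is the sole number with a matrix in both groups. The count of members past the threshold in macrophage-like cells went from 1 to 0 with library totals in place of TMM, with at least 10 counts in every library, with doublets kept in, with the members among the clustering genes, with clusters i1, i6 and i17 only and with clusters i8 and i20 added, and to 2 with no filter. The last 2 cluster choices, and leaving cluster i4 out of the neutrophil-like class, were added after seeing the data. With i1, i6 and i17 only, the log2 differences became 0.15 for H2-Aa, 0.25 for H2-Ab1, 0.24 for H2-Eb1 and 0.15 for Cd74. The Schwann-like count went from 1 to 0 with library totals, no filter, at least 10 counts, DESeq2, doublets kept in and members among the clustering genes. With no filter it rose from 0 to 3 in mural-like and to 1 in tenocyte-like cells. The cause was not tested. Leaving out 1 OSA library at a time gave 0 to 4 members in macrophage-like, 0 to 2 in Schwann-like, 0 to 3 in endothelial-like, 0 to 4 in fibroblast-like, 0 to 5 in mural-like, 0 to 2 in satellite-like and 0 to 1 in tenocyte-like cells. The lowest came without OSA replicate 3 in each of these classes, and the highest without OSA replicate 2 in macrophage-, endothelial- and satellite-like cells and without OSA replicate 1 in the others. The same omissions moved the difference in class share to between 1.38 and 5.68 percentage points for macrophage-like, 0.153 and 0.401 for dendritic-like and -0.43 and -0.394 for B and plasma-like cells, and that in macrophage-like cells with a UMI of the 4 genes to between -14.4 and -9.55; without thinning it was -3.97. Of the comparisons of a count or share with an alternative, 129 stayed within 1.5 times or the spread between libraries and 29 did not. Ciita and H2-DMb2 rested on few UMIs outside the presenting classes, and dendritic-, B and plasma- and monocyte-like cells were too few for a test.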
